A study of Mus musculus with 5 samples.

Results

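The genes described here are the chemokines and chemokine receptors of the mouse spleen, read on 5 2-colour microarrays. They are the probes whose gene symbol is a numbered Ccl, Cxcl, Ccr or Cxcr gene, or Cx3cl1, Cx3cr1, Xcl1, Ppbp or Pf4. This rule found 64 probes of 52 genes, 37 ligands and 15 receptors, among 14654 gene symbols on the array. A value on all 5 arrays was present for 30 of them, 19 ligands and 11 receptors, and these 30 were among the 9000 genes tested. Another 16 had a value on some arrays and 6 had none.

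RNA of mutant spleens was compared with RNA of wild-type spleens. Spleens of Sirt6-/- RelA+/- mice, which lack the chromatin deacetylase Sirt6 and carry 1 copy of the NF-kB subunit gene Rela, were read on 3 arrays. Spleens of Sirt6-/- mice with both Rela copies were read on 2 arrays, so that the absence of Sirt6 is shared by all 5 mutant spleens. Each mutant RNA carried Cy5 and was hybridised against a pool of wild-type spleen RNA carrying Cy3, with 15 ug of amplified RNA per dye. The labels give no strain, age, sex, kind of allele or number of spleens in the pool. The design asks whether losing a copy of Rela changes the expression state of the Sirt6-/- spleen.

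A value is a log2 ratio of mutant over pool after each array was centred on its median, so 0 means the level of the pool and 1 a doubling. Neither the base of the logarithm nor the direction is stated, and log2 of Cy5 over Cy3 was taken from the range of the values and the dyes in the labels. The only value of Sirt6 was -4.31, on Sirt6-/- RelA+/- array 2, below the pool. Rela lay at 1.15, -0.084 and -0.20 on Sirt6-/- RelA+/- arrays 1 to 3, against 0.48 and 1.07 on the Sirt6-/- arrays. The library labelled Sirt6-/- RelA+/- 1 thus read at the level of the Sirt6-/- arrays. Over all genes tested it correlated at 0.392 and 0.588 with Sirt6-/- arrays 1 and 2. With Sirt6-/- RelA+/- arrays 2 and 3 it correlated at 0.335 and 0.214. Those 2 arrays correlated with each other at -0.006, and the 2 Sirt6-/- arrays at 0.823. The groups used here follow the labels. The 3 Y-linked genes that were read lay higher than in the pool in all 5 mutant spleens, so sex and genotype cannot be told apart in a comparison with the pool. The pool has no replicate, the dyes were not swapped, and the labels do not say what was separate between arrays of a group, so a p-value speaks only for the spread among these arrays. Of the listed markers, 8 of 10 for B cells and 9 of 11 for T cells had a value on every array, but a ratio does not give a level in the tissue. No chemokine or receptor gene passed limma at an adjusted p of 0.05 against the pool or between the groups, so the values describe where the genes lay. The smallest adjusted p of any of the 30 genes was 0.205 in Sirt6-/- RelA+/- spleens, 0.0977 in Sirt6-/- spleens and 0.220 between the groups. In RNA from whole spleen, fewer cells of a type and less RNA per cell cannot be told apart.

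Chemokines are small secreted proteins that bind heparan sulphate on cells and matrix and steer leukocytes, which sense them through G protein-coupled receptors. In the spleen, stromal cells of the white pulp hold lymphocytes in place with a few constitutive chemokines. Cxcl13 marks the B cell follicle and binds Cxcr5, Ccl19 and Ccl21 mark the T cell zone and bind Ccr7, and Cxcl12 binds Cxcr4. Other chemokines are induced in inflammation. The p65 protein made from Rela is a well known activator of several of them, such as Cxcl1 and Cxcl10, while the lymphotoxin receptor and the other arm of NF-kB maintain the lymphoid ones.

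The upstream sequences of 4 ligands are shown because they contrast the ligands that separated the groups most, Cxcl12 and Cxcl13, with Cxcl1 and Cxcl10. Each is the 250 bases before the transcription start in RefSeq on GRCm38.p6, written 5′ to 3′ on the strand of the gene. Capitals mark the decameric kB consensus of NF-kB, searched on both strands, with overlapping matches joined.
Cxcl12 (chr6:117168285-117168534, plus strand): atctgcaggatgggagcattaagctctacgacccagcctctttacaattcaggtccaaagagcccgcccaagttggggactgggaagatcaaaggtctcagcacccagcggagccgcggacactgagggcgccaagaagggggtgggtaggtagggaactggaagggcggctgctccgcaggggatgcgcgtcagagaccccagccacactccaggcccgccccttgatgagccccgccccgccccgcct
Cxcl13 (chr5:95956689-95956938, plus strand): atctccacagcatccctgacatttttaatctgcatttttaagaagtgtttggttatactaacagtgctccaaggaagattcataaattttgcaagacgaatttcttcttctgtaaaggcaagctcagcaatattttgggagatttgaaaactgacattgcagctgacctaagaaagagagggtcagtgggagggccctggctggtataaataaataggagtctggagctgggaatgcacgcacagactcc
Cxcl1 (chr5:90890995-90891244, plus strand): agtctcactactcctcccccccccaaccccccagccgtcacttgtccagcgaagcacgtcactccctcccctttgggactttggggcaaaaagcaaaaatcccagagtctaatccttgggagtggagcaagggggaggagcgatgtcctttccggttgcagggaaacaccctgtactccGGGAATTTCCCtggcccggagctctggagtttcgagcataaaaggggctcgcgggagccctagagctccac
Cxcl10 (chr5:92348890-92349139, minus strand): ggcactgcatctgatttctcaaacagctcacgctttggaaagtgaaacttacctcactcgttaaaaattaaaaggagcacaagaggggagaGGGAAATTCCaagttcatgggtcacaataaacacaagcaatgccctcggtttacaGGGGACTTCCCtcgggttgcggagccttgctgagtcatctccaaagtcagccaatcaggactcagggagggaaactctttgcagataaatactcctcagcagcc
The Cxcl1 stretch held 2 overlapping matches, and the Cxcl10 stretch held 3, of which 2 overlap. Those of Cxcl12 and Cxcl13 held 0, as did those of the other 3 lymphoid homing ligands. Over the 40 genes of the rule with such a sequence, 10 held a match (25%), against 2225 of 27025 mouse genes (8.23%). The 10 were Ccl1, Ccl9, Ccl20, Cxcl1, Cxcl2, Cxcl3, Cxcl10, Ccr1, Ccr3 and Ccr6, of which 5 were tested. Another form of the motif, stricter at its end and looser in its middle, was in 9 of the 40 and in 1434 of all genes. A match is a description of letters in a short window, and no binding was measured. A count of 0 holds for this consensus only and does not mean that the stretch lacks an NF-kB site of another form.

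The lymphoid homing ligands lay below the pool in Sirt6-/- RelA+/- spleens, and all but Ccl19 lay lower there than in Sirt6-/- spleens without overlap. Cxcl12, which retains Cxcr4-bearing cells near stroma, had the widest gap. It lay at -0.67, -0.61 and -0.90 on the Sirt6-/- RelA+/- arrays, against 1.79 and 1.67 on the Sirt6-/- arrays. Both Sirt6-/- spleens were thus above the pool and all 3 Sirt6-/- RelA+/- spleens below it. The difference was -2.45 ± 0.40 on the log2 scale (SE, n = 3 and 2), a 5.47-fold lower mean in Sirt6-/- RelA+/- spleens (limma adjusted p = 0.220). The SE throughout is the moderated one of limma, which takes its spread from all 5 arrays.

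Cxcl13, the B cell attractant of follicular stroma, lay at -1.13, -0.91 and -1.38 in Sirt6-/- RelA+/- spleens, against 0.47 and 0.57 in Sirt6-/- spleens. The groups were on opposite sides of the pool, and arrays of a group were close together. The difference was -1.66 ± 0.41 (SE, n = 3 and 2), or 3.16-fold (limma adjusted p = 0.350).

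Ccl21a and Ccl21b encode nearly the same T cell zone chemokine, so a probe for one can bind the other and the genes are not independent of each other. Ccl21a lay at -1.15, -0.58 and -1.59 in Sirt6-/- RelA+/- spleens, against 0.62 and 0.22 in Sirt6-/- spleens. Ccl21b lay at -1.47, -0.60 and -1.41 in Sirt6-/- RelA+/- spleens, against 0.41 and -0.023 in Sirt6-/- spleens. For both genes Sirt6-/- RelA+/- array 2 was the nearest to the Sirt6-/- arrays. The differences were -1.52 ± 0.48 for Ccl21a (SE, n = 3 and 2, limma adjusted p = 0.444) and -1.35 ± 0.48 for Ccl21b (limma adjusted p = 0.474).

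Ccl19, the other ligand of Ccr7, did not follow this order. It lay at -1.04, -0.91 and -1.27 in Sirt6-/- RelA+/- spleens, against -0.47 and -1.06 in Sirt6-/- spleens. All 5 spleens were below the pool and the groups overlapped, with a difference of -0.31 ± 0.43 (SE, n = 3 and 2, limma adjusted p = 0.886).

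**Figure D1:**
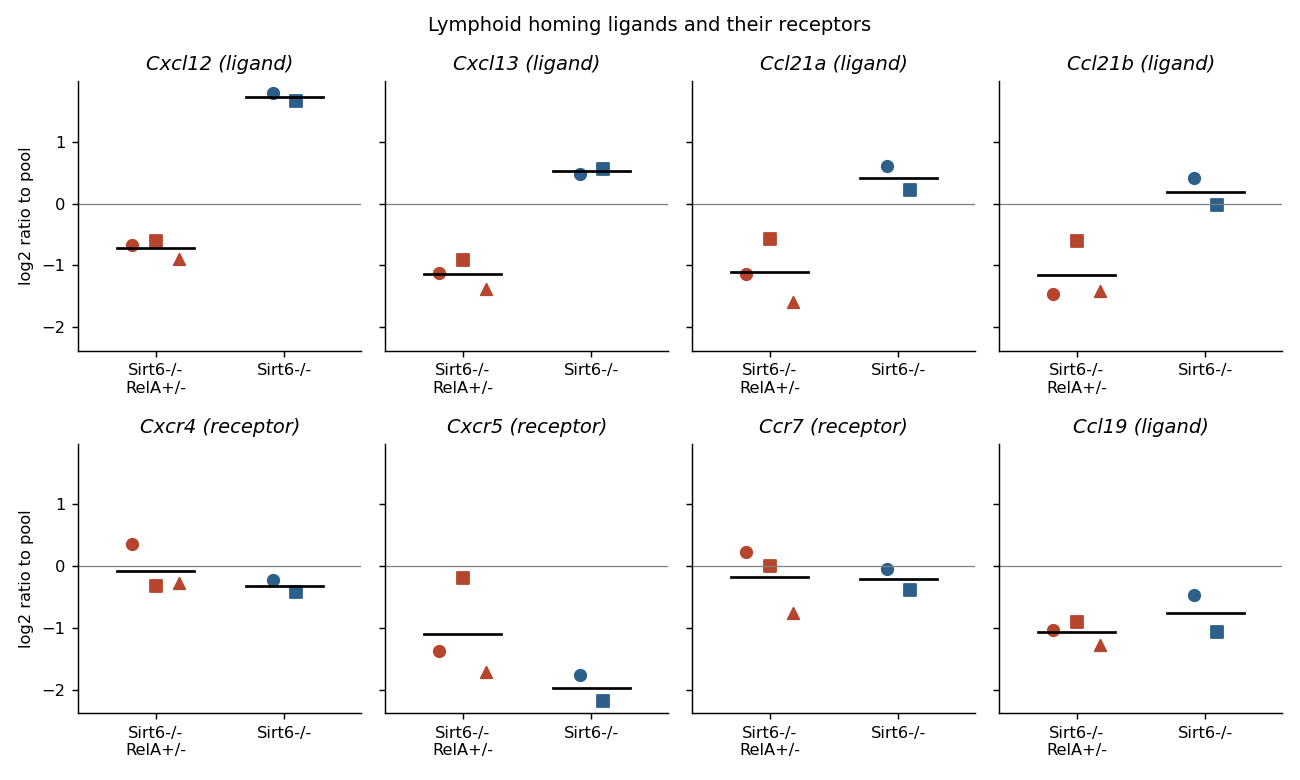
Log2 ratio to the wild-type pool (vertical axis) of 5 lymphoid homing ligands and their 3 receptors, with Sirt6-/- RelA+/- spleens in red at the left and Sirt6-/- spleens in blue at the right of each panel. Each point is an array (circle 1, square 2, triangle 3) and the bar is the group mean; Cxcl12, Cxcl13, Ccl21a and Ccl21b do not overlap between the groups, whereas Ccl19, Cxcr4 and Ccr7 do.

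Over these 5 ligands the median was -1.11 in Sirt6-/- RelA+/- and 0.42 in Sirt6-/- spleens, beside -0.02 and -0.03 over all genes tested. In the comparison of Sirt6-/- RelA+/- spleens with the pool all 5 had an unadjusted limma p under 0.05 and lay below it, beside 8.0% of all genes tested. For Cxcl12 this rests on probe 1560, with a mean of -2.03 in Sirt6-/- RelA+/- spleens, whereas the other 3 probes gave -0.02, -0.40 and -0.45 and none of them reached that level. The Cxcl12 call against the pool was also lost without Sirt6-/- RelA+/- array 2 or 3 and without either Sirt6-/- array. Between the groups 4 of 5 had every Sirt6-/- RelA+/- array below every Sirt6-/- array, beside 13.8% of all genes tested. These 4 also had an unadjusted limma p under 0.05 for the difference, beside 5.34% of all genes lower at that level. The count of 4 without overlap was the same without the library labelled Sirt6-/- RelA+/- 1, but there 23.8% of all genes met that rule. At an unadjusted p of 0.05 it was Cxcl12 alone that remained without either Sirt6-/- array. The ligands of this list were named with earlier results of these data known, and a list of 5 genes, of which 2 share their sequence, shows nothing particular by its counts.

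Markers of fibroblastic stroma, the cells that make these ligands, lay in the same order between the groups. Their median over 7 measured markers was -0.39, -0.35 and -1.17 on the Sirt6-/- RelA+/- arrays, against 0.26 and 0.05 on the Sirt6-/- arrays. Of the 7, 6 lay lower in Sirt6-/- RelA+/- than in Sirt6-/- spleens, with a median difference of -1.40. All 6 endothelial markers also lay lower, with a median difference of -0.84. Their part in the values of the ligands was not tested.

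The receptors of these ligands did not separate in the same direction. Cxcr4 lay at 0.36, -0.31 and -0.27 in Sirt6-/- RelA+/- spleens, against -0.23 and -0.42 in Sirt6-/- spleens. Ccr7, the receptor that brings T cells and dendritic cells to the T zone, lay at 0.23, -0.003 and -0.76 in Sirt6-/- RelA+/- spleens, against -0.039 and -0.39 in Sirt6-/- spleens. Both genes overlapped between the groups, with differences of 0.25 ± 0.44 (SE, n = 3 and 2, limma adjusted p = 0.916) and 0.04 ± 0.48 (limma adjusted p = 0.994).

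Cxcr5, which guides B cells into follicles, had a mean below the pool in both groups. In Sirt6-/- RelA+/- spleens this rests on probe 19399, while its other probe lay near the pool, as described below. It lay at -1.37, -0.20 and -1.71 in Sirt6-/- RelA+/- spleens, against -1.76 and -2.18 in Sirt6-/- spleens. The mean was -1.97 ± 0.44 in Sirt6-/- spleens (SE, n = 2, limma adjusted p = 0.108 against the pool), and the difference between the groups was 0.88 ± 0.57 (limma adjusted p = 0.713). B cell markers were low beside it. Their median over 8 markers was -0.27, -0.37 and -1.17 in Sirt6-/- RelA+/- spleens, against -0.83 and -1.39 in Sirt6-/- spleens, where all 8 lay below the pool. The part of these markers in the value of Cxcr5 was not tested.

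Ligands and receptors were compared in pairs, by the value of the ligand minus that of the receptor on the same array. In 3 pairs this was lower on every Sirt6-/- RelA+/- array than on either Sirt6-/- array. Cxcl12 minus Cxcr4 was -1.03, -0.29 and -0.63 on the Sirt6-/- RelA+/- arrays, against 2.01 and 2.08 on the Sirt6-/- arrays. Cxcl13 minus Cxcr5 was 0.25, -0.72 and 0.34 in Sirt6-/- RelA+/- spleens, against 2.23 and 2.75 in Sirt6-/- spleens. Ccl21a minus Ccr7 was -1.38, -0.58 and -0.83 in Sirt6-/- RelA+/- spleens, against 0.66 and 0.61 in Sirt6-/- spleens. Ccl19 minus Ccr7 overlapped, at -1.27, -0.90 and -0.51 in Sirt6-/- RelA+/- spleens, against -0.43 and -0.67 in Sirt6-/- spleens. Such a difference of ratios compares each gene with its own level in the pool and is no ratio of the amounts of ligand and receptor. The pool and a constant dye bias cancel when they are compared between the groups.

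Several genes were read by more than 1 probe, and the probes did not always lie together. Cxcl12 had 4. On probe 29897 it lay at -0.22, -0.46 and -0.54 in Sirt6-/- RelA+/- spleens, against 2.31 and 2.80 in Sirt6-/- spleens, and probe 34025 read nearly the same on every array. Probe 23202 lay at 0.93, -0.30 and -0.69 in Sirt6-/- RelA+/- spleens, against 1.92 and 1.77 in Sirt6-/- spleens. Probe 1560, annotated to another Cxcl12 transcript, lay at -3.16, -1.15 and -1.79 in Sirt6-/- RelA+/- spleens, against 0.58 and -0.80 in Sirt6-/- spleens. All 4 probes had the Sirt6-/- RelA+/- arrays below the Sirt6-/- arrays, but they differ on which group departs from the pool. Taken alone, probe 1560 gave a mean of -0.11 in Sirt6-/- spleens, where the mean over probes was 1.73, so the position of Cxcl12 above the pool in Sirt6-/- spleens rests on the other 3. In Sirt6-/- RelA+/- spleens probe 1560 lay furthest below the pool, with a mean of -2.03. Probes 29897 and 34025 also lay below it on all 3 of these arrays, and probe 23202 only on arrays 2 and 3.

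The 2 probes of Cxcr5 disagreed in Sirt6-/- RelA+/- spleens. Probe 19399 lay at -3.10, -0.45 and -3.00 there, against -2.10 and -3.13 in Sirt6-/- spleens. Probe 26131 lay at 0.35, 0.05 and -0.43 in Sirt6-/- RelA+/- spleens, against -1.42 and -1.24 in Sirt6-/- spleens. Only probe 26131 separates the groups, and on it the Sirt6-/- RelA+/- spleens were near the pool.

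**Figure D2:**
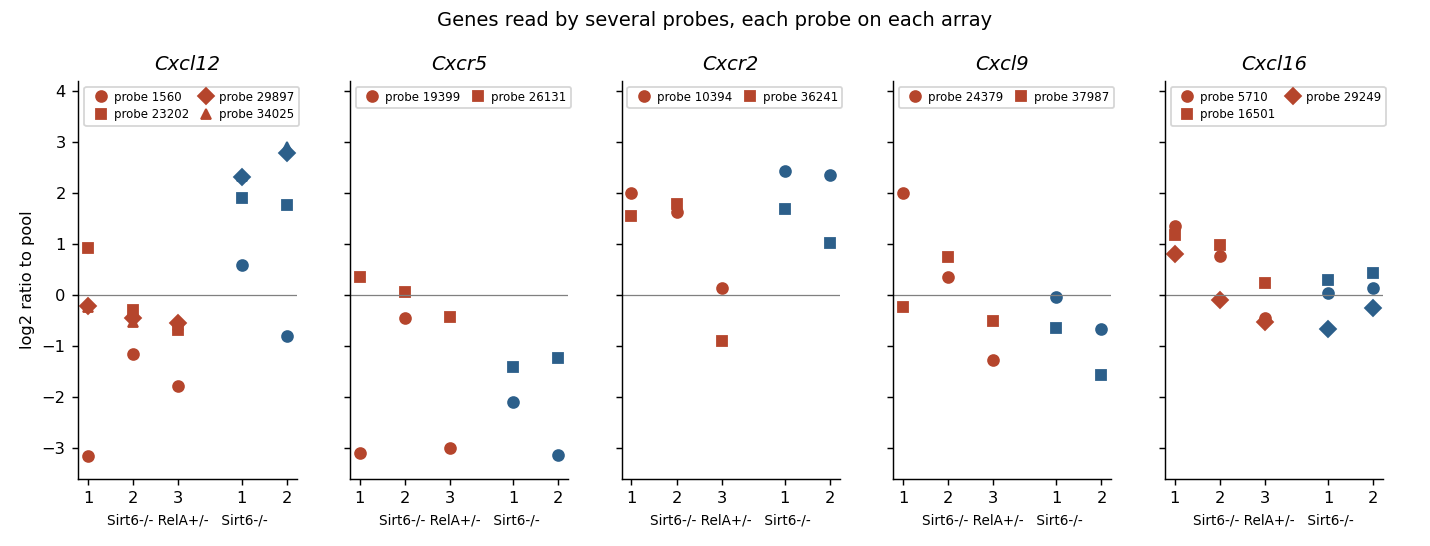
Log2 ratio to the pool (vertical axis) of each probe of 5 genes read by several probes, on Sirt6-/- RelA+/- arrays 1 to 3 (red, left) and Sirt6-/- arrays 1 and 2 (blue, right). Symbols stand for probes; all 4 Cxcl12 probes lie lower in Sirt6-/- RelA+/- spleens, while the Cxcr5 probes lie far apart on Sirt6-/- RelA+/- arrays 1 and 3.

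The inflammatory CC ligands varied widely among Sirt6-/- RelA+/- spleens, with a median SD over arrays of 1.79, beside 0.674 over all genes tested. Ccl4, which draws monocytes, T cells and natural killer cells, lay at 2.90, 3.21 and -1.03 in Sirt6-/- RelA+/- spleens, against -0.16 and 0.37 in Sirt6-/- spleens. Arrays 1 and 2 were high and array 3 was the lowest of all 5. The value on Sirt6-/- array 2 averages 0.69 with 0.05 from another Ccl4 probe, which was blank on the other arrays. The SD over the 3 Sirt6-/- RelA+/- arrays was 2.37, larger than that of 98.6% of genes tested. The difference was 1.59 ± 1.26 (SE, n = 3 and 2, limma adjusted p = 0.776).

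Ccl5, a T cell and natural killer cell product, lay at 0.15, 1.99 and -0.37 in Sirt6-/- RelA+/- spleens, against -0.54 and -1.11 in Sirt6-/- spleens. The groups did not overlap, but Sirt6-/- RelA+/- array 3 lay close to the Sirt6-/- arrays. Ccl6 and Ccl9 are constitutive myeloid chemokines of rodents. Ccl9 lay at -0.10, 2.59 and -0.82 in Sirt6-/- RelA+/- spleens, against 0.45 and 0.37 in Sirt6-/- spleens. Ccl6 lay at -1.93, 1.64 and -0.44 in Sirt6-/- RelA+/- spleens, against 1.22 and 0.30 in Sirt6-/- spleens. In both, array 2 was the highest of all 5.

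Ccl22, made by dendritic cells and macrophages and sensed by Ccr4 on T cells, was the inflammatory ligand that lay below the pool on every array. It lay at -1.80, -1.54 and -0.11 in Sirt6-/- RelA+/- spleens, against -2.42 and -2.37 in Sirt6-/- spleens. The Sirt6-/- mean was -2.39 ± 0.47 (SE, n = 2, limma adjusted p = 0.0980 against the pool). The difference between the groups was 1.24 ± 0.60 (limma adjusted p = 0.619), with no overlap. Dendritic cell markers had a median over 6 genes of 0.94, 0.51 and 0.09 in Sirt6-/- RelA+/- spleens, against -0.22 and 0.06 in Sirt6-/- spleens. In the Sirt6-/- mean 3 of them lay above the pool and 3 below it. Their part in the value of Ccl22 was not tested.

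Ligands induced by interferon gamma draw T cells and natural killer cells through Cxcr3. Cxcl10 lay at 0.46, 0.37 and -1.38 in Sirt6-/- RelA+/- spleens, against -1.19 and -1.31 in Sirt6-/- spleens. Sirt6-/- RelA+/- array 3 read like the Sirt6-/- arrays, and the other 2 lay above the pool. Cxcl9 lay at 0.89, 0.55 and -0.89 in Sirt6-/- RelA+/- spleens, against -0.34 and -1.12 in Sirt6-/- spleens. On Sirt6-/- RelA+/- array 1 its 2 probes lay on opposite sides of the pool, at 2.01 and -0.225. Cxcr3, the receptor of both ligands, lay at 0.91, 1.48 and -0.83 in Sirt6-/- RelA+/- spleens, against 0.02 and -0.58 in Sirt6-/- spleens. For all 3 genes the groups overlapped, with differences of 1.07 ± 0.65 for Cxcl10 (SE, n = 3 and 2, limma adjusted p = 0.688), 0.91 ± 0.65 for Cxcl9 (limma adjusted p = 0.749) and 0.80 ± 0.74 for Cxcr3 (limma adjusted p = 0.814).

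Xcl1, a product of natural killer cells and CD8 T cells, lay at -0.17, -0.54 and -2.75 in Sirt6-/- RelA+/- spleens, against -2.32 and -2.92 in Sirt6-/- spleens. It was again array 3 that read like the Sirt6-/- spleens. The Sirt6-/- mean was -2.62 ± 0.63 (SE, n = 2, limma adjusted p = 0.113). Natural killer markers lay at a median of 0.35, 0.34 and -0.52 over 8 genes in Sirt6-/- RelA+/- spleens, against -0.55 and -0.73 in Sirt6-/- spleens, again with Sirt6-/- RelA+/- array 3 close to the Sirt6-/- arrays. Their part in the value of Xcl1 was not tested.

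The platelet chemokines Pf4 and Ppbp, stored in platelet granules, had the widest spread of the ligands. Pf4 lay at -1.20, 3.32 and -1.40 in Sirt6-/- RelA+/- spleens, against 0.04 and -0.43 in Sirt6-/- spleens. Ppbp lay at -2.79, 3.04 and -1.67 in Sirt6-/- RelA+/- spleens, against -0.007 and -1.96 in Sirt6-/- spleens. Sirt6-/- RelA+/- array 2 was far above the other 4 arrays in both. Platelet and megakaryocyte markers were also highest there, with a median over 5 genes of -0.90, 1.38 and -0.68 in Sirt6-/- RelA+/- spleens, against 0.08 and -0.35 in Sirt6-/- spleens. Their part in the values of Pf4 and Ppbp was not tested.

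Cxcl5, a neutrophil attractant acting on Cxcr2, lay at -1.04, 2.00 and -1.62 in Sirt6-/- RelA+/- spleens, against 0.15 and 1.18 in Sirt6-/- spleens. It too was highest on array 2. Differences between the groups were small beside their error for Cxcl5 (-0.89 ± 1.08), Pf4 (0.43 ± 1.40) and Ppbp (0.51 ± 1.67, SE, n = 3 and 2). Without array 2 the ligand median of the Sirt6-/- RelA+/- group was -0.96, where all 3 arrays gave -0.22.

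Of the remaining ligands, Cxcl14, Cxcl16 and Ccl27a stayed close to the pool on most arrays. Cxcl16, a membrane-bound ligand of Cxcr6, lay at 1.11, 0.55 and -0.25 in Sirt6-/- RelA+/- spleens, against -0.11 and 0.11 in Sirt6-/- spleens. Ccl27a, known as a skin chemokine, lay at 0.09, -0.19 and -0.16 in Sirt6-/- RelA+/- spleens, against -0.92 and -0.41 in Sirt6-/- spleens. Cxcl14 lay at -0.33, 0.06 and 0.04 in Sirt6-/- RelA+/- spleens, against -0.48 and -0.42 in Sirt6-/- spleens. Cxcl14 and Ccl27a did not overlap between the groups, with limma adjusted p values of 0.851 and 0.762.

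**Figure D3:**
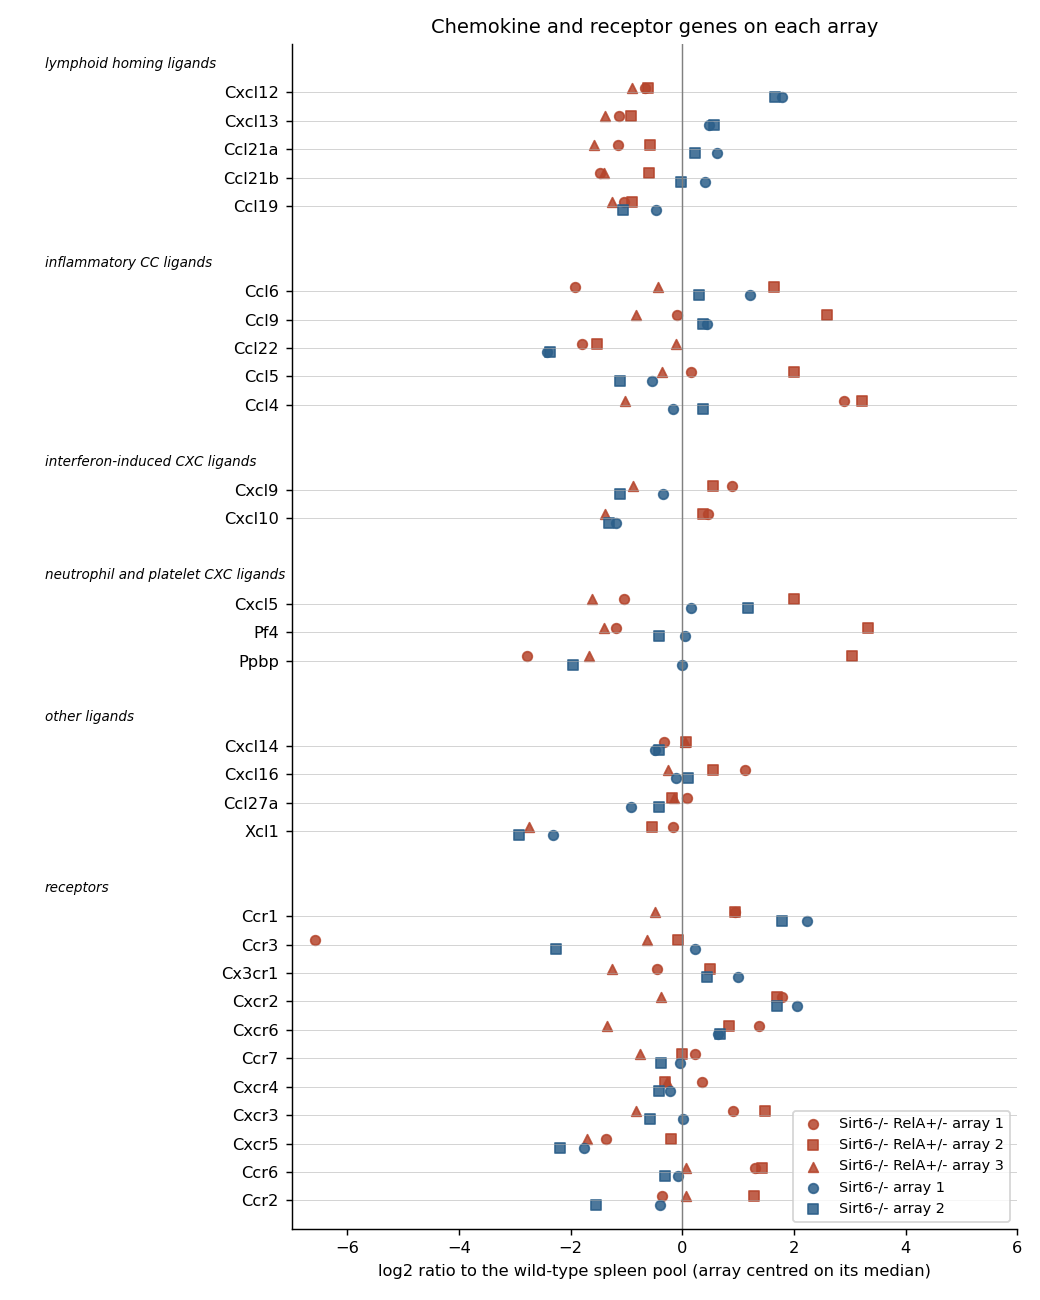
Log2 ratio to the wild-type pool (horizontal axis) of the 30 genes read on every array, grouped by role, with Sirt6-/- RelA+/- arrays in red drawn above Sirt6-/- arrays in blue. Red points of the lymphoid homing ligands lie to the left of the blue ones except for Ccl19, and red points of Ppbp, Pf4, Ccl4 and Ccr3 spread widely, with Ccr3 at -6.59 on Sirt6-/- RelA+/- array 1.

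Ccr1 and Cxcr2 lay high in Sirt6-/- spleens. Ccr1, carried by neutrophils and monocytes, lay at 0.94, 0.94 and -0.49 in Sirt6-/- RelA+/- spleens, against 2.23 and 1.79 in Sirt6-/- spleens. It was the only receptor with every Sirt6-/- RelA+/- array below every Sirt6-/- array. The Sirt6-/- mean was 2.01 ± 0.45 (SE, n = 2, limma adjusted p = 0.108 against the pool). The difference between the groups was -1.55 ± 0.58 (limma adjusted p = 0.507).

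Cxcr2, the main neutrophil receptor, lay at 1.79, 1.70 and -0.38 in Sirt6-/- RelA+/- spleens, against 2.06 and 1.69 in Sirt6-/- spleens. All arrays but Sirt6-/- RelA+/- array 3 lay well above the pool, and the groups overlapped. The Sirt6-/- RelA+/- mean was 1.04 ± 0.47 (SE, n = 3, limma adjusted p = 0.398), and the Sirt6-/- mean was 1.88 ± 0.57 (n = 2, limma adjusted p = 0.158). Cxcr1, the other neutrophil receptor, had a value on Sirt6-/- RelA+/- array 2 only, 3.13.

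Neutrophil markers had a median over 9 genes of -0.73, 1.34 and -0.70 in Sirt6-/- RelA+/- spleens, against 2.03 and 0.88 in Sirt6-/- spleens, where all 9 lay above the pool. They were low on Sirt6-/- RelA+/- array 1, on which Cxcr2 and Ccr1 were high. Their part in the receptor values was not tested. Macrophage and monocyte markers had a median over 8 genes of -0.43, 0.59 and -0.69 in Sirt6-/- RelA+/- spleens, against 0.79 and 0.50 in Sirt6-/- spleens.

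**Figure D4:**
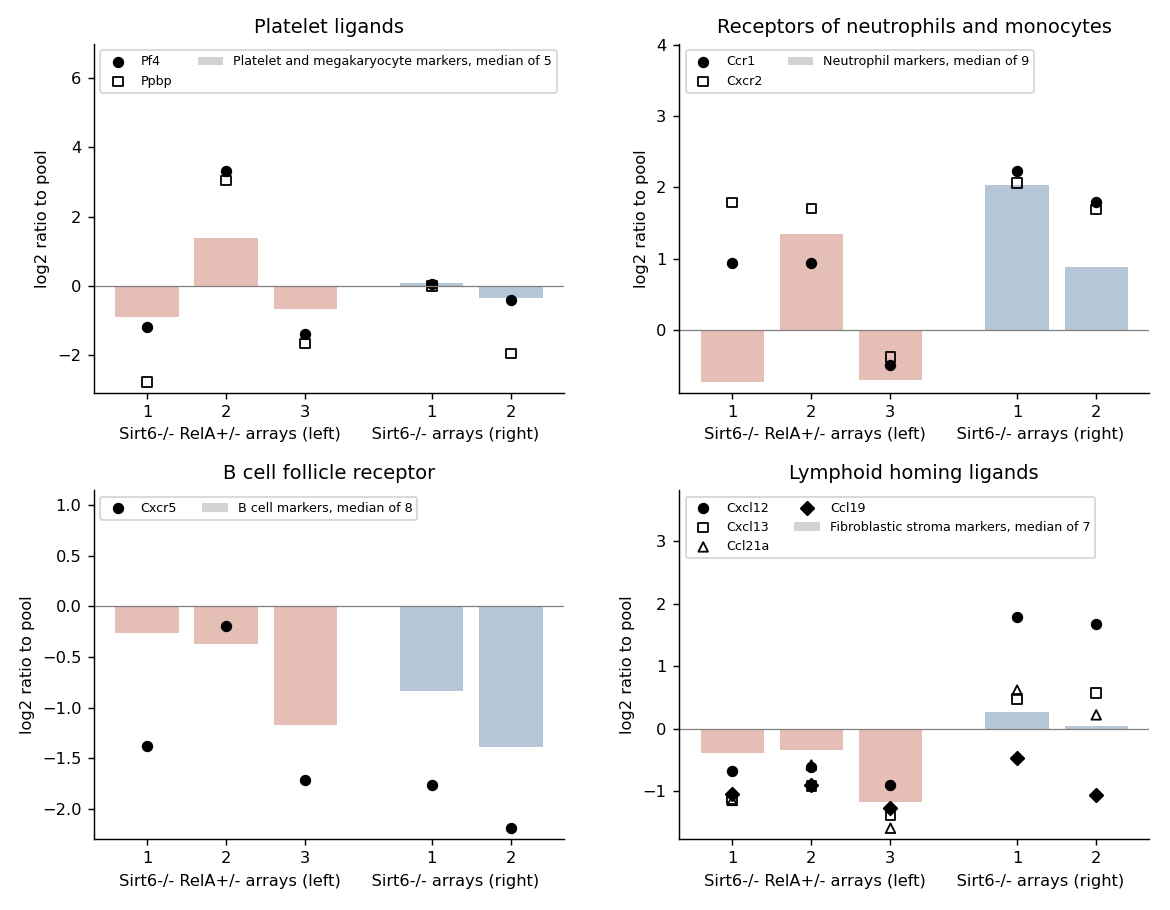
Log2 ratio to the pool (vertical axis) on Sirt6-/- RelA+/- arrays 1 to 3 (red bars, left) and Sirt6-/- arrays 1 and 2 (blue bars, right). Bars are the median of a list of cell type markers and symbols are single chemokine or receptor genes; Pf4, Ppbp and the platelet markers are all highest on Sirt6-/- RelA+/- array 2, and Cxcr2 is at 1.79 on array 1, where the neutrophil markers have a median of -0.73.

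Monocyte receptors did not lie on the same side. Ccr2, which lets monocytes leave the marrow, lay at -0.36, 1.29 and 0.06 in Sirt6-/- RelA+/- spleens, against -0.39 and -1.56 in Sirt6-/- spleens. Cx3cr1, the fractalkine receptor of patrolling monocytes, lay at -0.45, 0.50 and -1.25 in Sirt6-/- RelA+/- spleens, against 1.00 and 0.45 in Sirt6-/- spleens. Ccr2 was thus higher and Cx3cr1 lower in the mean of Sirt6-/- RelA+/- spleens, by 1.30 ± 0.65 and -1.12 ± 0.61 (SE, n = 3 and 2, limma adjusted p = 0.634 and 0.650). For Ccr2 the nearest arrays of the groups, array 1 of each, differed little.

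Ccr6, carried by B cells and some T cells and the receptor of Ccl20, was the only gene of the 30 above the pool on all Sirt6-/- RelA+/- arrays, beside 16.5% of all genes tested. It lay at 1.30, 1.43 and 0.07 in Sirt6-/- RelA+/- spleens, against -0.08 and -0.31 in Sirt6-/- spleens. The groups did not overlap and lay on opposite sides of the pool, although array 3 was close to it. The difference was 1.13 ± 0.55 (SE, n = 3 and 2, limma adjusted p = 0.617). B cell markers were also less low in Sirt6-/- RelA+/- spleens, all 8 of them, by a median of 0.41. The part of these markers in the value of Ccr6 was not tested.

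Cxcr6, a receptor of activated T cells, lay at 1.37, 0.83 and -1.35 in Sirt6-/- RelA+/- spleens, against 0.63 and 0.68 in Sirt6-/- spleens. T cell markers had a median over 9 genes of 0.32, 0.73 and -0.89 in Sirt6-/- RelA+/- spleens, against 0.23 and -0.15 in Sirt6-/- spleens, with array 3 the lowest in both. The part of these markers in the value of Cxcr6 was not tested. Ccr3, the eotaxin receptor of eosinophils, lay at -6.59, -0.08 and -0.63 in Sirt6-/- RelA+/- spleens, against 0.23 and -2.27 in Sirt6-/- spleens. Its SD over the Sirt6-/- RelA+/- arrays, 3.61, was larger than that of 99.9% of genes tested, and it rests on a single value.

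The 16 genes with a value on some arrays only entered no test. The rule behind the blank cells is not given. Sirt6-/- RelA+/- array 2 alone carried values of Ccl3 (3.39) and Ccl8 (4.41), and with Sirt6-/- array 2 of Ccl12 (6.16, against 0.06). Ccl3 is a partner of Ccl4, and Ccl8 and Ccl12 are monocyte attractants. Another monocyte attractant, Ccl2, and the eosinophil attractant Ccl11 had a value on Sirt6-/- array 2 only, 1.82 and 2.49.

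Cxcl1, the neutrophil attractant whose upstream sequence is shown above, lay at 1.89 and 0.12 on Sirt6-/- RelA+/- arrays 1 and 2, against 1.47 and 5.16 on the Sirt6-/- arrays. It was above the pool wherever it was read, and the groups overlapped. Cx3cl1, the ligand of Cx3cr1, lay at 2.03 and -0.002 on the same arrays, against 0.55 and 1.76 in Sirt6-/- spleens. Ccl17, the partner of Ccl22, lay at 0.72 on Sirt6-/- RelA+/- array 2, against 0.71 and 0.64 in Sirt6-/- spleens. Its receptor Ccr4 lay at 0.84 there, against -0.25 and -0.34 in Sirt6-/- spleens.

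Ccr8, a receptor of T cell subsets, lay at -1.64 and -0.27 on Sirt6-/- RelA+/- arrays 2 and 3, against -3.08 on Sirt6-/- array 1. Ccl24 lay at -0.38 and -1.31 on those arrays, against -0.90 and -0.19 in Sirt6-/- spleens. Ccl25 lay at -0.39 and -0.66 there, against -1.07 and 0.40 in Sirt6-/- spleens. Its value averages 2 probes on Sirt6-/- RelA+/- array 3 (-1.66 and 0.34) and Sirt6-/- array 2 (0.52 and 0.28). On the other arrays with a value it is from probe 9445 alone. Cxcl17 lay at 0.40 and -0.42 on Sirt6-/- RelA+/- arrays 1 and 3. Cxcl2 lay at 0.19 on Sirt6-/- RelA+/- array 3 and 0.10 on Sirt6-/- array 1, and Cxcl3 at -0.22 on Sirt6-/- array 2. Ccl1, Ccl7, Ccl20, Ccl28, Cxcl15 and Ccr10 had no value on any array. Of the 52 genes, 33, 41 and 35 had a value on Sirt6-/- RelA+/- arrays 1 to 3, against 38 and 40 on the Sirt6-/- arrays.

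The order of ligands and receptors as classes depended on how their values were summarised. The ligand median over 19 genes was -0.67, 0.37 and -1.03 on the Sirt6-/- RelA+/- arrays, against -0.11 and -0.41 on the Sirt6-/- arrays. The receptor median over 11 genes was 0.36, 0.83 and -0.63 in Sirt6-/- RelA+/- spleens, against 0.02 and -0.39 in Sirt6-/- spleens. The ligand median minus the receptor median was below 0 on all 5 arrays, at -1.03, -0.46 and -0.41 in Sirt6-/- RelA+/- spleens and at -0.13 and -0.02 in Sirt6-/- spleens. Taking the mean of each gene over a group first, the ligand median minus the receptor median was -0.51 in the Sirt6-/- RelA+/- and 0.02 in the Sirt6-/- group. Without the library labelled Sirt6-/- RelA+/- 1 it was 0.09 in that group, so its sign there depends on this library. It was -0.02 and -0.13 in the Sirt6-/- group without array 1 and without array 2. No score over these genes was tested.

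Counts over the 30 genes can be read against all genes tested. In Sirt6-/- RelA+/- spleens 7 of 30 lay below the pool at an unadjusted limma p under 0.05, the 5 lymphoid homing ligands with Ccl22 and Cxcr5, beside 8.0% of all genes. On the other side there was Ccr6 alone, beside 5.06% of all genes. Together 8 of 30 passed that level, beside 13.1%. All 3 Sirt6-/- RelA+/- arrays lay below the pool for 9 of 30, beside 15.1%. At an adjusted p under 0.05 the share of all genes was 0.322%, and 0 of the 30 were among them. In Sirt6-/- spleens 3 of 30 lay above the pool at that unadjusted level, Cxcl12, Ccr1 and Cxcr2, beside 9.82%, and 4 below it, Ccl22, Cxcl10, Cxcr5 and Xcl1, beside 10.6%. These 7 were 23.3% of the 30, beside 20.4% of all genes, which is near the background. The count fell without either Sirt6-/- array, which leaves 1 array in that group, and so did that of all genes. Both Sirt6-/- arrays lay above the pool for 10 of 30, beside 39.6% of all genes, and below it for 14, beside 41.9%. At an adjusted p under 0.05 the share of all genes was 0.0%.

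Between the groups, 5 of 30 had every Sirt6-/- RelA+/- array below every Sirt6-/- array, beside 13.8% of all genes, and 7 had every one above, beside 14.4%. The share lower, 16.7%, was thus near that of all genes. The 5 lower were Cxcl12, Cxcl13, Ccl21a, Ccl21b and Ccr1. The 7 higher were Ccl5, Ccl22, Ccl27a, Cxcl14, Ccr2, Ccr6 and Cxcr5. At an unadjusted limma p under 0.05 the same 5 were lower, beside 5.34% of all genes, and 0 of 30 were higher, beside 3.48%. In either direction the share of all genes was 8.82%. In 4 genes, Cxcl12, Cxcl13, Ccl21a and Ccr6, the groups lay on opposite sides of the pool, beside 5.37% of all genes. At an adjusted p under 0.05 the share of all genes between the groups was 0.0%. In either direction the count of 5 was 8 without Sirt6-/- RelA+/- array 2, beside 1102 of 9000 genes. Without array 3 it was 11, beside 794 of 9000 genes. It did not hold without either Sirt6-/- array, which leaves 1 array in that group.

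**Figure D5:**
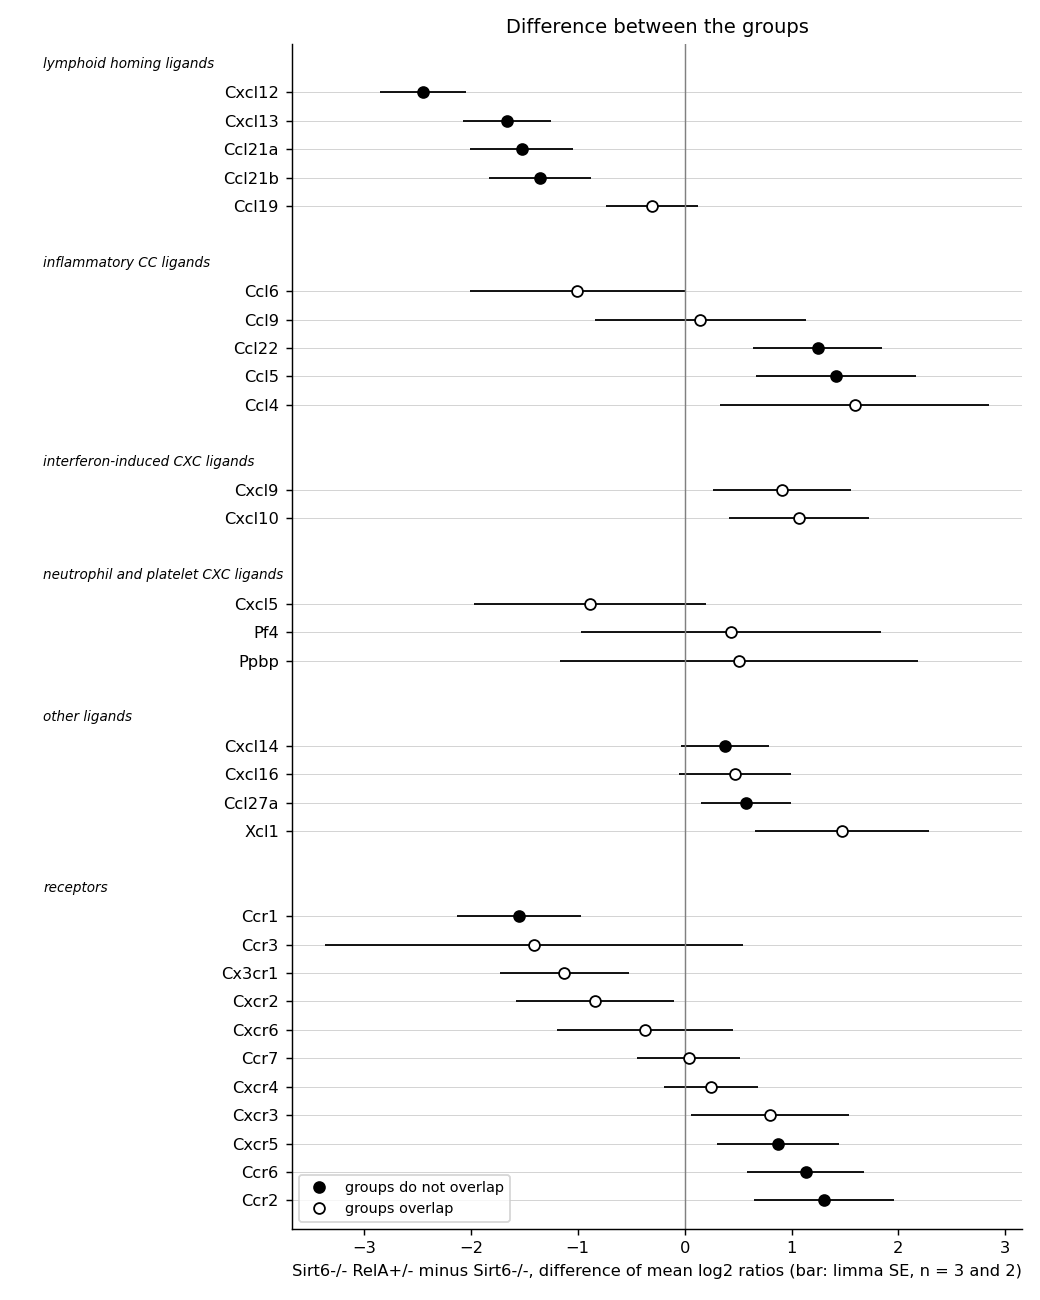
Difference of mean log2 ratios, Sirt6-/- RelA+/- minus Sirt6-/- spleens (horizontal axis), for the 30 genes read on every array; bars are limma's moderated SE (n = 3 and 2) and filled points mark genes whose groups do not overlap. Cxcl12 at -2.45, Cxcl13 at -1.66, Ccl21a at -1.52 and Ccl21b at -1.35 lie furthest from 0 beside their error.

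Other genes of the pathway came from a list of 56 symbols for atypical receptors, G proteins, desensitisation, downstream signalling and lymphotoxin inputs, of which 38 were tested. The limma test called 0 of them after adjustment. With an unadjusted p under 0.05, 3 lay above and 2 below the pool in Sirt6-/- RelA+/- spleens, beside 5.06% and 8.0% of all genes tested. In Sirt6-/- spleens 5 lay above and 3 below it, beside 9.82% and 10.6%. Between the groups 2 were higher and 2 lower, beside 3.48% and 5.34%. These counts are close to what those shares give for 38 genes. The atypical receptor Ackr1, which binds chemokines on red cells and venules without signalling through G proteins, lay at -1.79, -0.45 and 0.87 in Sirt6-/- RelA+/- spleens, against -2.56 and -2.60 in Sirt6-/- spleens. The difference was 2.13 ± 0.77 (SE, n = 3 and 2, limma adjusted p = 0.489). Erythroid markers also lay highest on Sirt6-/- RelA+/- array 3 and lowest in Sirt6-/- spleens, with a median over 5 genes of -1.01, -1.07 and 1.61 in Sirt6-/- RelA+/- spleens, against -3.94 and -3.31 in Sirt6-/- spleens, and their part in Ackr1 was not tested.

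The arrestin genes, whose products uncouple and internalise chemokine receptors, lay on opposite sides of the pool. Arrb1 lay at -2.38, -0.99 and -0.03 in Sirt6-/- RelA+/- spleens, against -1.93 and -2.58 in Sirt6-/- spleens. Arrb2 lay at 1.48, 1.07 and 0.25 in Sirt6-/- RelA+/- spleens, against 1.48 and 1.58 in Sirt6-/- spleens. Ltbr, the lymphotoxin receptor gene, lay at 1.16, 0.78 and 0.08 in Sirt6-/- RelA+/- spleens, against 1.27 and 1.46 in Sirt6-/- spleens, above the pool on every array. Rarres2, which encodes the leukocyte attractant chemerin, lay at 0.27, -0.32 and -0.62 in Sirt6-/- RelA+/- spleens, against 1.02 and 1.56 in Sirt6-/- spleens. Its groups did not overlap, with a difference of -1.52 ± 0.47 (SE, n = 3 and 2, limma adjusted p = 0.444).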

How the data were processed

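RNA of mutant spleens (Cy5) and of a wild-type pool (Cy3) was measured on 5 arrays. The authors deposited 1 value per spot, taken here as a log2 ratio of Cy5 over Cy3. Its base, direction, normalization and the filter behind blank cells are not stated. The table held 38784 spots, with 19768 to 22871 values per array and column medians between -0.039 and 0.004. GEO's platform annotation, which can be old, named 1 gene for 22204 probes. Each array was centred on its median, probes of a gene were averaged, and the 9000 genes without a blank were fitted in 1 limma 3.58.1 model (lmFit and eBayes, R 4.3.3) with a mean per group, leaving 3 residual and 3.63 prior degrees of freedom. Tests were 2-sided against 0 and between the groups, with Benjamini-Hochberg adjustment over all genes at 0.05. SE means limma's moderated standard error. The fit was tested on simulated data. Precision is limited by having only 3 and 2 arrays.

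The genes and lists were chosen with earlier results of these data known. SE and adjusted p are given mainly for the 15 genes with the smallest unadjusted p in any comparison and for the lymphoid homing ligands and their receptors; from the other pathway genes, the 5 with the smallest unadjusted p were named. Promoters are from RefSeq (GRCm38.p6), for 40 of the 52 genes; the kB consensus replaced another form searched first. Alternatives were values without centring, equal median absolute deviation, genes with at least 2 arrays per group, single probes, only the arrays of the group, a block for the replicate number, and leaving out each array in turn. Updating symbols through Entrez IDs added 0 probes to the rule. Figures used matplotlib 3.10.9 in Python 3.11.15.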

Additional observations from a re-analysis of the deposited data

Results flagged for a closer look

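In 4 genes all Sirt6-/- RelA+/- arrays lay on one side of the pool and both Sirt6-/- arrays on the other, which was so for 5.37% of all genes tested. They were Cxcl12 (difference of -2.45 on the log2 scale, n = 3 and 2, limma adjusted p = 0.220), Cxcl13 (-1.66, limma adjusted p = 0.350), Ccl21a (-1.52, limma adjusted p = 0.444) and, in the other direction, Ccr6 (1.13, limma adjusted p = 0.617). None of these differences passed the test. For Cxcl12, 2 of its 4 probes break the pattern: probe 23202 lay at 0.93 on Sirt6-/- RelA+/- array 1 and probe 1560 at -0.80 on Sirt6-/- array 2. For Ccr6 the lowest Sirt6-/- RelA+/- value was 0.07 and the highest Sirt6-/- value -0.08, so the sides are set by small values. Probe 35699 of Ccr6 lay at -0.10 on Sirt6-/- RelA+/- array 3, below the pool, whereas the mean of both its probes lay above.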

How the results depend on the processing

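The number of genes called at an adjusted p of 0.05 depended on the fit. For Sirt6-/- RelA+/- against the pool limma called 29 genes, 5 without centring, 2 with equal median absolute deviation, 0 with at least 2 arrays per group, with single probes or with only the arrays of the group, and 0 to 3 with an array left out. For Sirt6-/- against the pool it called 0 as reported, with 1835 at an unadjusted p under 0.05, and 3321 with only the 2 arrays of the group. The difference between the groups gave 0 in each of these, with 794 at an unadjusted p under 0.05. The replicate numbers are not said to pair animals. The deviations of arrays with the same number correlated at -0.41 and -0.40 across genes. With only 2 Sirt6-/- arrays, the deviations of array 1 are the negative of those of array 2. These correlations therefore cannot decide whether arrays with the same number belong together. With the replicate number as a block the counts were 215 for Sirt6-/- RelA+/-, 101 for Sirt6-/- and 42 for the difference. At an unadjusted p under 0.05 the block kept 1 of the 5 chemokine genes between the groups, Cxcl12. The adjusted p between the groups ranged from 0.165 to 1.0 for Cxcl12 and from 0.216 to 1.0 for Cxcl13 over the alternatives.

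The lymphoid homing ligands without overlap numbered 4 or 5 under every alternative of the values. With an array left out the rule was met by more of all genes, 16.9% to 23.9% beside 13.8% with all arrays. It was 19.8% where the count was 5, without Sirt6-/- array 2. With single probes it was 12.9% of probes. With an array left out the ligand median ran from -0.958 to -0.0525 in Sirt6-/- RelA+/- and from -0.41 to -0.108 in Sirt6-/- spleens. The receptor median ran from -0.258 (without array 1) to 0.464 in Sirt6-/- RelA+/- and from -0.388 to 0.017 (without array 2) in Sirt6-/- spleens, so its sign turned in both. The ligand minus receptor median ran from -0.971 to 0.0862 in Sirt6-/- RelA+/- and from -0.125 to -0.022 in Sirt6-/- spleens, where it was 0.023 with both arrays and 0.134 with single probes, so its sign turned in both groups too. Among single genes signs turned in 13 cases. Cxcl12 in Sirt6-/- was -0.11 on probe 1560, and Ccl4 in Sirt6-/- was -1.26 with the replicate block. With an array left out, values against the pool ran from -0.151 to 0.675 for Ccr2, -0.382 to 0.116 for Ccr7, -0.505 to 0.413 for Cxcl10 and -0.293 to 0.0425 for Cxcr4 in Sirt6-/- RelA+/- spleens, with Cxcr4 at 0.0235 without array 3. In Sirt6-/- spleens they ran from -0.16 to 0.369 for Ccl4 and from -0.023 to 0.413 for Ccl21b. The difference of Ccr7 was -0.0434 with equal median absolute deviation and ran from -0.169 to 0.329 with an array left out, with -0.05 without Sirt6-/- RelA+/- array 2 and -0.138 without Sirt6-/- array 2. The cause was not tested. In 11 cases an adjusted p was under 0.05 only in an alternative, 9 in Sirt6-/- spleens with only their 2 arrays and 2 with the block (Ccl4 in Sirt6-/- RelA+/-, Xcl1 in Sirt6-/-). Blank cells kept 22 of 52 genes out of the tests.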
